A study of Mus musculus with 2 samples.

Results

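Radial glia and astrocyte genes were examined in the accessible chromatin of embryonic mouse striatum, sampled from wild-type embryos at E14.5, during the embryonic period of neuron formation. The 10 genes were 5 genes of radial glia (Nes, Vim, Fabp7, Slc1a3 and Ptprz1) and 5 genes grouped here as later astrocyte genes (Gfap, Aqp4, Aldh1l1, S100b and Gja1). Every deposited peak that overlapped the RefSeq span of a gene, or the 50 kb on either side of it, was taken, and such a stretch is called a locus. This gave 86 of the 87174 peaks of the series, 49 at radial glia loci and 37 at astrocyte loci, with no peak shared between loci. Nuclei from 2 libraries of 1 group, of C57BL/6J and CD1 background, were profiled by single-nucleus ATAC-seq, in which a transposase cuts and tags open DNA. The deposited result is a single list of peak positions in mm10, with no counts, scores, barcodes or cell types. Depth is therefore unknown, no value below has a replicate error, and no test was made between genes. A peak says that DNA was called accessible in the series, and how nuclei were pooled for the calls is not given. A site open in few nuclei cannot be told apart from one weakly open in many.

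Radial glia are the stem cells of the embryonic brain. Their bodies line the ventricle, their long fibres guide young neurons, and in the ganglionic eminences their divisions lead to striatal neurons. Later in development, part of this lineage turns to making astrocytes, which take up glutamate, carry water and potassium and are joined by gap junctions. Several genes serve both cell types, and Slc1a3, Fabp7 and Vim are known to remain active in astrocytes or to return in reactive ones. The grouping likewise does not say that an astrocyte gene is silent in radial glia.

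All 5 radial glia genes had a peak over their start, whereas only 2 of the 5 astrocyte genes, Aldh1l1 and Gja1, had one. A gene-start peak here is a peak that lies at least partly within 1000 bp of the annotated start. Over all protein-coding genes with a start in the reference table, 65.6% had such a peak (11468 of 17492). The radial glia count was 5 of 5 and the astrocyte count 2 of the 4 with a start in that table. Groups of 5 and 4 genes are too small to set either count apart from this share. A peak over the start base itself was present at the same 7 genes, against 62.7% of all genes. For Aqp4, which entered without a strand, both ends of the span were examined, and neither had a peak within 1000 bp. Either-end peaks were present at 67.3% of all 21774 protein-coding genes and, among the 10 genes, at the same 7. With a window of 2500 bp, 5 of 5 radial glia genes and 3 of the 4 astrocyte genes with a known start had one, Gfap being added, against 67.9% of all genes with a start. Aqp4 then had a peak within reach of the lower end of its span and none within reach of the upper end, and which end is its start was not given. The difference between 5 of 5 and 2 of 5 genes was described and not tested.

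**Figure D1:**
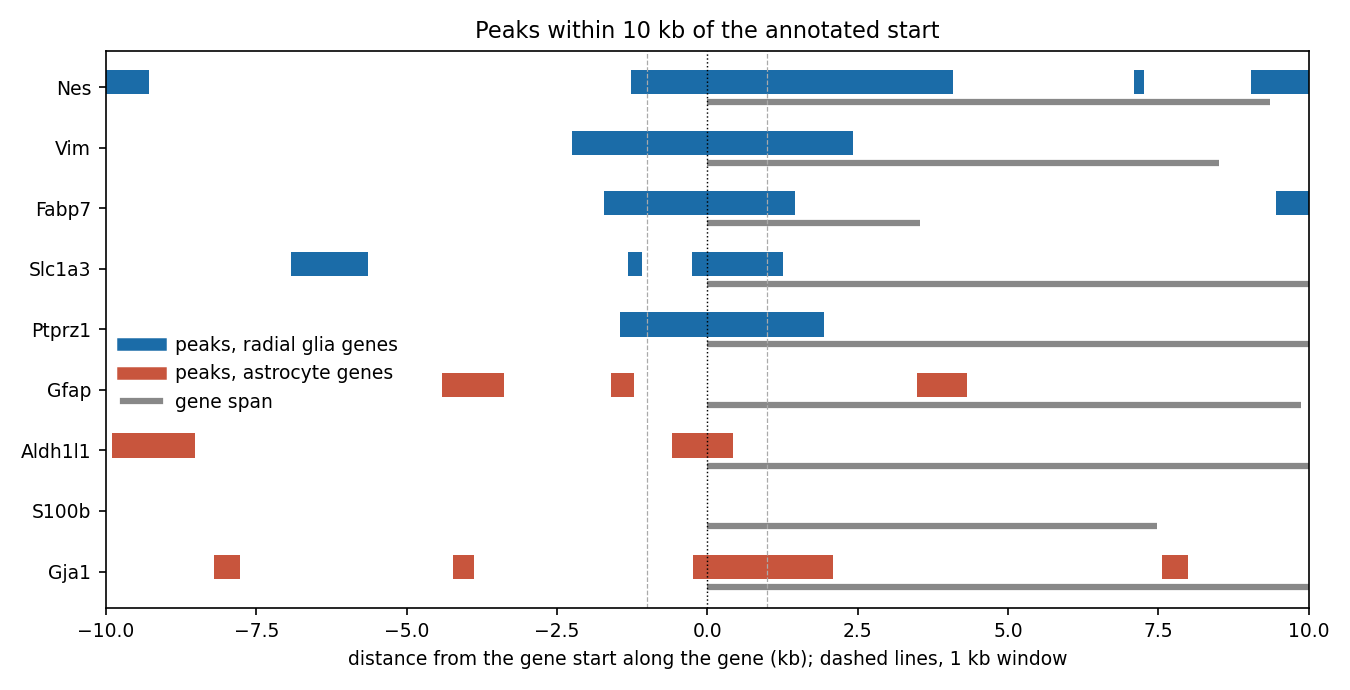
Peaks within 10 kb of the annotated start of the 9 genes with a strand, with distance along the gene in kb on the horizontal axis, radial glia genes in blue above and astrocyte genes in red below, gene spans as grey bars and the 1000 bp window as dashed lines. A peak crosses the start in all 5 radial glia genes and in Aldh1l1 and Gja1, while Gfap has peaks to either side of its start and S100b has none in view.

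The start regions differed in base composition, which matters because promoters rich in CpG, the C followed by G that can be methylated, are open in most tissues. The stretches below are the 250 bases before the start of 3 radial glia genes and 3 astrocyte genes, from RefSeq (GRCm38.p6, the assembly named mm10), 5′ to 3′ along the gene, with each CpG in capitals. They are shown to set promoters that lay under a peak (Nes, Vim, Fabp7 and nearly all of the Gja1 stretch) beside promoters that did not (Gfap and S100b). Of the 10 genes, 9 matched an entry of the promoter table.
Nes (chr3:87970843-87971092, plus strand): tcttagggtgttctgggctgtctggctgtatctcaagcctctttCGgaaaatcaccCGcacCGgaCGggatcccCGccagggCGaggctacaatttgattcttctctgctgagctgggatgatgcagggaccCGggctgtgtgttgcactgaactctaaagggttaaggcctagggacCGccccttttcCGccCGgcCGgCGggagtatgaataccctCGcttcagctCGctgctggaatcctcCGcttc
Vim (chr2:13574061-13574310, plus strand): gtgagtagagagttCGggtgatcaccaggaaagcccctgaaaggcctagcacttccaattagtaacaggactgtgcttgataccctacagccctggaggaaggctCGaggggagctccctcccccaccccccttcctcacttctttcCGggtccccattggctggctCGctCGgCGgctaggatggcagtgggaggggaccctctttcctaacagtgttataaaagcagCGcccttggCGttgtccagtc
Fabp7 (chr10:57784673-57784922, plus strand): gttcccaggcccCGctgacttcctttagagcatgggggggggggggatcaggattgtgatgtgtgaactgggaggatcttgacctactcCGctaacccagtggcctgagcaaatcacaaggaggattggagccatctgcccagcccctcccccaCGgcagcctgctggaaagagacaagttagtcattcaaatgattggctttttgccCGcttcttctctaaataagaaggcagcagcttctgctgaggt
Gfap (chr11:102897201-102897450, minus strand): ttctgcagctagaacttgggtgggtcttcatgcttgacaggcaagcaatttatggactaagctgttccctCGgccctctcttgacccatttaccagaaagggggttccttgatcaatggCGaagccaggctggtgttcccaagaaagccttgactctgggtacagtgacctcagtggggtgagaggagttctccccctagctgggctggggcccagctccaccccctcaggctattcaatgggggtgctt
S100b (chr10:76253586-76253835, plus strand): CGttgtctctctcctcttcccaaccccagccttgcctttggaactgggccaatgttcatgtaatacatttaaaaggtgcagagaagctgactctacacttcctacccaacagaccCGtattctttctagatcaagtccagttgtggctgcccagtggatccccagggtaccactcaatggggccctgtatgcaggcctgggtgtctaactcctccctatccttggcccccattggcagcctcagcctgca
Gja1 (chr10:56377050-56377299, plus strand): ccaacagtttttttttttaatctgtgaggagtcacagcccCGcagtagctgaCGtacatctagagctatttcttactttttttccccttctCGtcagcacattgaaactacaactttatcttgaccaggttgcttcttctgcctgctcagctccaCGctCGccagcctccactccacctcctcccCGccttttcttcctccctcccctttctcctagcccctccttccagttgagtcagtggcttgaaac

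The printed Nes stretch held 15 CpG and that of Vim 8, against 4 in Fabp7, 2 each in Gfap and S100b and 6 in Gja1. The same stretch of Slc1a3, not shown, held 2 and lay under its start peak. Few CpG therefore stood both in open promoters, those of Fabp7 and Slc1a3, and in the promoters without a peak. Over the whole table window of 300 bases, the CpG ratio (CpG observed over that expected from the C and G content) was 0.702 in Nes and 0.767 in Ptprz1. It was 0.421 in Vim, 0.276 in Fabp7 and 0.197 in Slc1a3. Among the astrocyte genes it was 0.544 in Gja1, 0.333 in Aldh1l1, 0.145 in S100b and 0.129 in Gfap. The median over all 17492 promoters was 0.577.

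With promoters split at a CpG ratio of 0.6, a gene-start peak was present at 97.6% of genes of high ratio and at 35.5% of genes of low ratio. Nes and Ptprz1 were of high ratio, and both had a gene-start peak. The other 3 radial glia genes were of low ratio, and all 3 had one. All 4 astrocyte genes with a promoter entry were of low ratio, and 2 of the 4 had one. Among so few genes, 2 of 4 cannot be set apart from the 35.5% of their own class or the 65.6% of all genes. The class share also depends on the threshold, being 27.8% at 0.5, where Gja1 leaves the class, and 48.5% at 0.75. Gja1, at 0.544, and Nes, at 0.702, lay nearest to the 0.6 threshold. Of the 7 genes of low ratio, Vim, Fabp7, Slc1a3, Aldh1l1 and Gja1 had a gene-start peak, and Gfap and S100b, like most genes of that class, had none.

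Short sequence patterns were then searched on both strands of the 9 promoter windows, from 250 bases before to 50 bases after the start. Vim held a TATA box (TATAAA) beginning 32 bases before its start and CCAAT boxes 196 and 94 bases before it. TATAAA was found in 13.3% of all promoters and CCAAT in 39.2%. Fabp7 had CCAAT 126 and 56 bases before its start, and 5 of the 9 genes had at least 1 (Vim, Fabp7, Slc1a3, Aldh1l1 and S100b). The core letters bound by RBPJ, the DNA-binding partner of Notch, TGGGAA, occurred in Fabp7 and in 3 astrocyte genes, Gfap, Aldh1l1 and S100b, against 24.5% of all promoters. TTCNNNGAA, the pattern of STAT factors, occurred in Slc1a3 and in Gfap, where it crossed the start, against 7.78% of promoters. TGACAG, the core of MEIS factors, to which the title of the series refers, occurred in Gfap alone of the 9, 216 bases before its start, against 18.7% of promoters.

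Further patterns were searched in the same windows. The homeodomain core TAATTA lay 24 bases into Slc1a3 (4.69% of promoters). GGGCGG, the GC box, was present in Nes, Slc1a3, Ptprz1 and Aldh1l1 (46.3%), CANNTG, the E-box, in Fabp7, Slc1a3, Aldh1l1, S100b and Gja1 (68.8%), and CACNAG, the N-box of HES repressors, in 6 genes (41.9%). TTGGCA, part of the site of NFI factors that act in astrocyte formation, occurred in S100b (13.4%), where it shared bases with a CCAAT box, the only overlap of different patterns. The SOX core ATTGTT (9.5%), the POU octamer ATGCAAAT (1.72%) and the full NFI site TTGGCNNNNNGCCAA (0.04%) had no match. A match gives letters in a window and not a bound site, and a missing match says nothing of the factor.

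Gene-start peaks of 4 of the 5 radial glia genes were wide. Among the 11468 protein-coding genes with one, the median width was 1722 bp, with quartiles of 1298 and 2350 bp. Nes, an intermediate filament protein by which neural stem cells are recognised, had a peak of 5361 bp (percentile 97.5). Vim, the intermediate filament vimentin, had one of 4679 bp (96.2). Ptprz1, a receptor tyrosine phosphatase that also occurs as the proteoglycan phosphacan, had one of 3393 bp (90.4), and Fabp7, the brain fatty acid binding protein, one of 3164 bp (88.4). Slc1a3, the glutamate transporter GLAST, had a gene-start peak of 1501 bp (37.6), below the median. Among the astrocyte genes Gja1, the gap junction protein connexin 43, reached 2323 bp (74.2), and Aldh1l1, a folate enzyme by which astrocytes are often labelled, 1014 bp (12.4). The 5 radial glia values thus ran from 1501 to 5361 bp, and the Gja1 value lay inside that range.

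Within their own class of CpG ratio the order was nearly the same. Among genes of low ratio, whose median gene-start peak was 1372 bp, Vim lay at percentile 96.7, Fabp7 at 90.6, Gja1 at 81.4, Slc1a3 at 56 and Aldh1l1 at 31.1. Among genes of high ratio, with a median of 1835 bp, Nes lay at 97.4 and Ptprz1 at 89.9. Vim, Fabp7 and Gja1 thus had peaks wider than most of their class. Slc1a3, with the lowest CpG ratio of these genes of low ratio, lay near the middle, and Aldh1l1 below it.

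**Figure D2:**
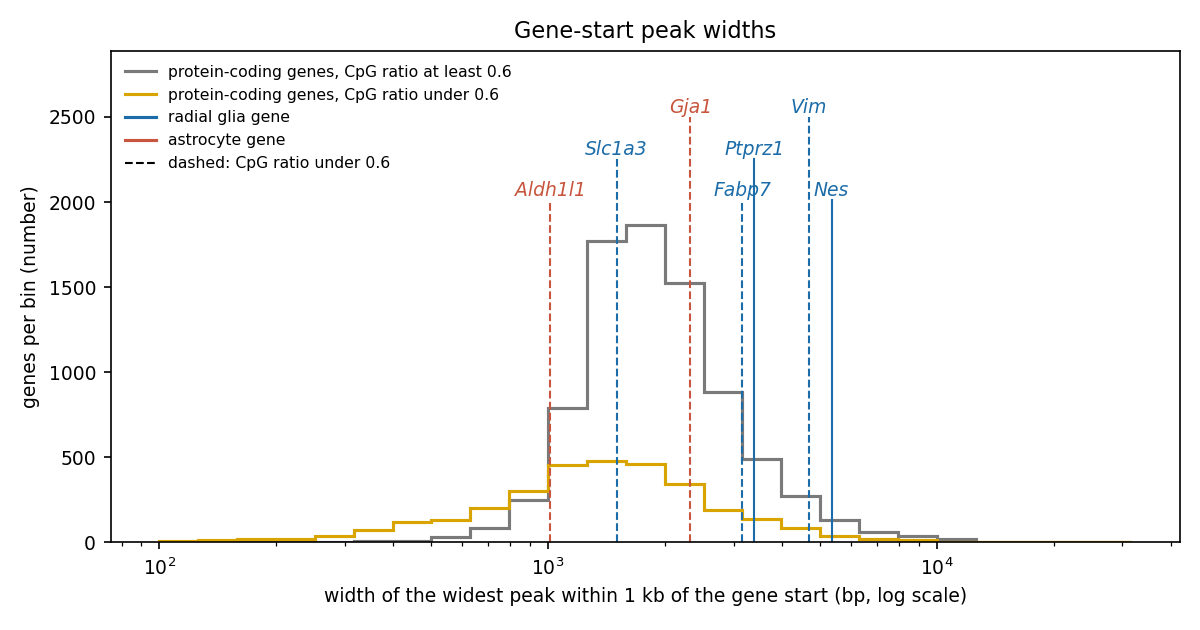
Number of protein-coding genes by the width of the widest peak within 1 kb of their start (bp, log scale), in grey for promoters of CpG ratio of at least 0.6 and in yellow for the others, with vertical lines at the 7 genes with a gene-start peak (radial glia blue, astrocyte red, dashed for a low CpG ratio). Vim and Nes stand at 4679 and 5361 bp in the right tail, and Aldh1l1 at 1014 bp is the narrowest of the 7.

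Peaks of the broadest 1% of the series, those over 4479 bp, lay within 1000 bp of the span of 2 radial glia genes, Nes and Vim, and of 0 astrocyte genes. Over all protein-coding genes the share was 3.95%. A second peak at the end of Nes, of 4464 bp, lay just below that limit, and the peak of Vim, at 4679 bp, just above it. With the broadest 5%, over 2544 bp, 4 radial glia genes (Nes, Vim, Fabp7 and Ptprz1) and 0 astrocyte genes were counted, against 17.3% of all genes. The smallest gap between peaks of the list is 501 bp, so no closer peaks are listed apart. Whether closer ones were joined is not stated in the sources used here, and a broad peak need not be open throughout.

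The covered length within 5 kb on either side of the start was also taken, and at Nes, Vim, Ptprz1 and Fabp7 it equals the width of the gene-start peak. It was 5361 bp at Nes, 4679 bp at Vim, 3393 bp at Ptprz1, 3164 bp at Fabp7 and 1723 bp at Slc1a3. At the astrocyte genes it was 2686 bp at Gja1, 2258 bp at Gfap, 1014 bp at Aldh1l1 and 0 bp at S100b. All protein-coding genes had a median of 1420 bp. By this measure Gfap exceeded Slc1a3, although no peak reached within 1000 bp of the Gfap start, so the groups overlapped.

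At Nes the gene-start peak, from 87969825 to 87975186 on chromosome 3, reached 1268 bp upstream and 4093 bp into the gene (span 87971093 to 87980451, plus strand). The first part of the gene is known to contain the intronic enhancer that drives Nes in neural progenitors. Whether the peak holds that element was not examined, since no exon positions were used. A peak of 165 bp lay 7093 bp into the gene, and the 4464 bp peak crossed its end (87980131 to 87984595). Together they covered 48.9% of the Nes span, the highest share of the 10 genes, against a median of 3.77% over all protein-coding genes. The locus held 15 peaks, percentile 93.3 among the 2178 genes of its length class (7437 to 11731 bp, median 7 peaks).

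Most of the 15 peaks of the Nes locus lay at neighbouring genes. Only 3 overlapped Nes, and 12 lay over other genes. Bcan, which encodes brevican, a brain matrix proteoglycan, was overlapped by 6 of them, the widest of 3974 bp. Crabp2, a retinoic acid binding protein gene, was overlapped by 2, the wider of 5975 bp. In all, 32.3% of the Nes locus was covered, the highest share of the 10 loci, whereas the other 9 ranged from 1.58% at S100b to 8.39% at Aldh1l1.

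Vim (chromosome 2, 13574311 to 13582826, plus strand) had 1 peak over the gene, at its start. The 4679 bp peak, from 13572055 to 13576734, reached 2256 bp upstream and 2423 bp into the gene. The locus held 3 other peaks, an 82 bp peak inside Trdmt1, a 1349 bp peak at the Trdmt1 start, and one of 285 bp beginning 31055 bp downstream of the Vim start. With 4 peaks the locus lay at percentile 29.8 of its length class.

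Fabp7 (chromosome 10, 57784923 to 57788450, plus strand) likewise had 1 peak over the gene. This peak, from 57783212 to 57786376, reached 1711 bp upstream and covered the first 1453 bp, or 41.2% of this short gene. The next peak, of 2184 bp, began 9463 bp downstream of the start at Smpdl3a, a phosphodiesterase-like gene. The 5 peaks of the locus put it at percentile 45.9 among genes of 1571 to 4217 bp. The median of that class was 6 peaks.

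Slc1a3 (chromosome 15, 8634124 to 8710807, minus strand) combined a start peak of ordinary width with many peaks elsewhere. The start peak, from 8709557 to 8711058, reached 251 bp upstream and 1250 bp into the gene, and Gm31340, a long non-coding RNA gene with its own annotated start under the same peak, lies on the other side. Of the 15 peaks, 4 overlapped the gene. These included peaks of 1210 and 1491 bp that began 46466 and 50023 bp into it. A further 5 peaks lay just beyond the end of the gene, between 8625316 and 8633795, with widths from 329 to 1152 bp. Slc1a3 was the nearest protein-coding gene to all 15, and the locus lay at percentile 84.6 among genes of 57307 to 108874 bp.

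At Ptprz1 (chromosome 6, 22875315 to 23052916, plus strand) 9 of the 10 peaks lay over the gene. The start peak, from 22874051 to 22877444, reached 1451 bp upstream and 1942 bp downstream. The 8 others over the gene were from 23 to 870 bp wide and began between 18398 and 139503 bp from the start, and one of 645 bp lay within 1000 bp of the start of the non-coding gene Gm30493. The one outside, of 1690 bp, ended 40359 bp upstream. Its length class, genes of at least 108875 bp, had a median of 12 peaks per locus and 8 over the span. Ptprz1, with 10 and 9, lay at percentile 39.4 by locus and 54.2 by span.

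**Figure D3:**
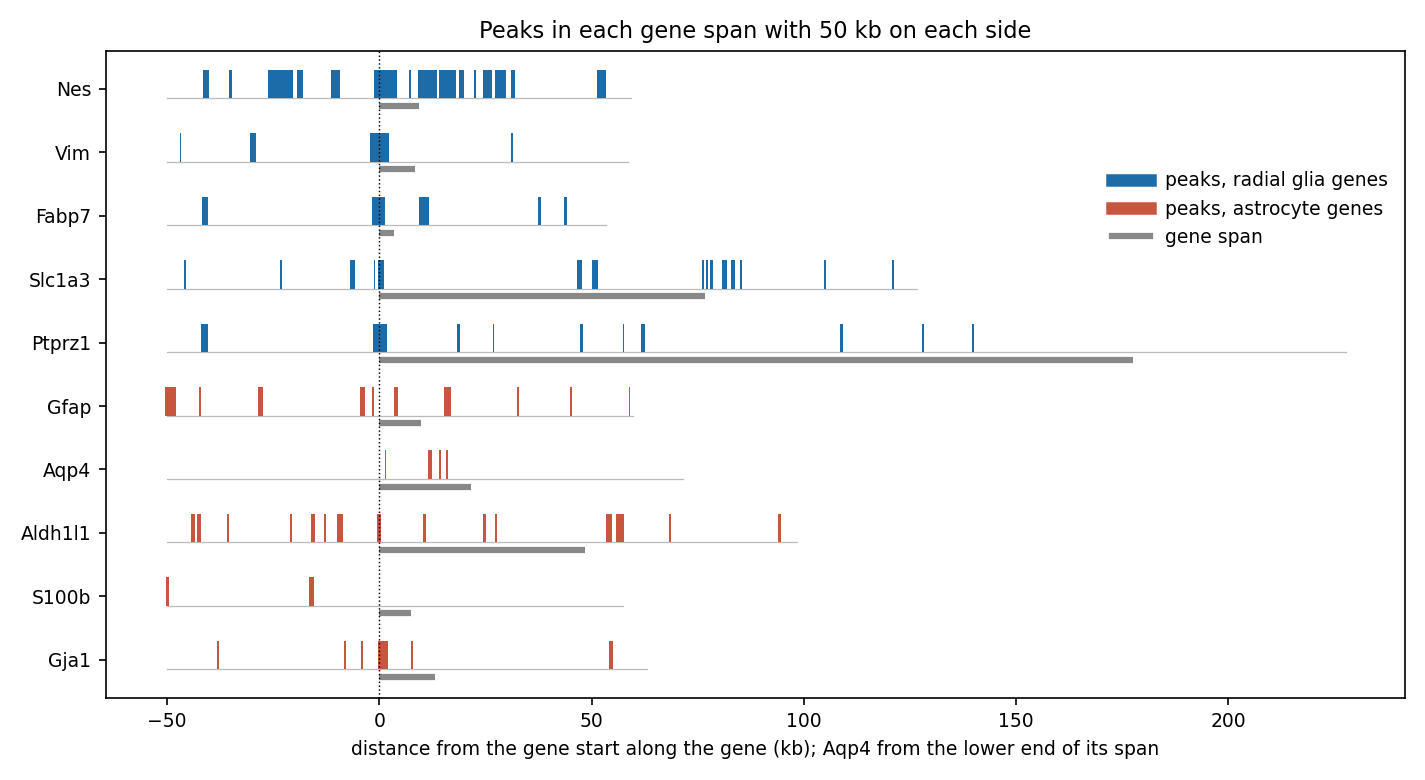
Peaks in the span of each gene and 50 kb on each side, by distance from the gene start along the gene in kb, with radial glia genes in blue above and astrocyte genes in red below and grey bars for the gene spans. Aqp4 is drawn from the lower end of its span, and narrow peaks are drawn at least 0.4 kb wide. Nes stands in a dense run of 15 peaks, Aqp4 has 4 peaks that all lie over the gene, and S100b has 2 that both lie outside it.

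Gfap, the intermediate filament protein by which astrocytes are recognised, had peaks on both sides of its start but none over it (chromosome 11, 102887336 to 102897200, minus strand). The nearest peak, of 391 bp from 102898417 to 102898808, lay 1217 to 1608 bp upstream. The region upstream of Gfap is known for an element bound by STAT3 at the time astrocytes form, and whether this peak holds it was not examined, since no genome sequence was used. A peak of 1028 bp lay farther upstream, from 3378 bp before the start, over the non-coding genes Gm34560 and Gm39395, and one of 839 bp began 3481 bp into Gfap. It was the only peak over the gene. Of the 3 intermediate filament genes, peaks covered 48.9% of the Nes span, 28.5% of the Vim span and 8.5% of the Gfap span.

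The Gfap locus held 10 peaks, percentile 73.5 of its length class, and 9 of them lay over other genes. A 1475 bp peak lay at the start of Ccdc103, a 1357 bp peak at the start of Kif18b, a mitotic kinesin gene, and a 2525 bp peak over C1ql1, a gene of the C1q family. Gfap was the nearest protein-coding gene to 3 of the 10.

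Aqp4, the water channel of astrocyte endfeet (chromosome 18, 15389394 to 15410982), had 4 peaks, all over the gene and none in its flanks. They were 381, 781, 281 and 499 bp wide, in order of position from 15390685 to 15405534. The first lay 1291 bp from the lower end and the last 5448 bp from the upper end of the span, and the first 3 also lay over the non-coding gene A830021F12Rik. None was wider than 781 bp, the smallest maximum of the 10 loci. With 4 peaks over the span Aqp4 lay at percentile 95.2 of genes of 17220 to 24634 bp, whose median was 1, while its locus count lay at 31.7.

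Aldh1l1 (chromosome 6, 90550768 to 90599171, plus strand) was the astrocyte gene with most peaks, 15, at percentile 91.6 of genes of 36004 to 57306 bp. Its 1014 bp start peak, from 90550205 to 90551219, reached 588 bp upstream and 426 bp downstream. Inside the gene lay 3 more, of 595, 659 and 360 bp. Upstream, 4 peaks nearest to Aldh1l1 lay from 8511 to 21015 bp before its start, the widest of 1386 bp, and 3 farther ones were nearest to Klf15, a zinc finger gene. The other 4 lay over Slc41a3, a magnesium transporter gene, the widest of 2078 bp. Aldh1l1 was the nearest coding gene to 8 of the 15.

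S100b, a calcium-binding protein of astrocytes (chromosome 10, 76253836 to 76261319, plus strand), had no peak over its span, as did 26.7% of protein-coding genes. The locus held 2 peaks, of 1185 bp at the start of Prmt2, an arginine methyltransferase gene, and of 627 bp beyond Prmt2. The nearer one ended 15440 bp upstream of the S100b start. The locus lay at percentile 18.0 of its length class, the lowest of the 10.

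Gja1 (chromosome 10, 56377300 to 56390419, plus strand) had a peak over its start, narrower than those of 4 of the 5 radial glia genes. This 2323 bp peak, from 56377070 to 56379393, reached only 230 bp upstream but 2093 bp into the gene. A second peak over the gene, of 433 bp, began 7556 bp in. Upstream lay peaks of 363, 431 and 416 bp, at 3872, 7768 and 37817 bp from the start. One of 832 bp lay downstream at the start of the non-coding gene Gm36595. Gja1 was the nearest coding gene to all 6 peaks, and the locus lay at percentile 46.9 of genes of 11733 to 17219 bp.

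The number of peaks per locus did not separate the groups. Radial glia loci held 15 (Nes), 15 (Slc1a3), 10 (Ptprz1), 5 (Fabp7) and 4 (Vim) peaks, with a median of 10. Astrocyte loci held 15 (Aldh1l1), 10 (Gfap), 6 (Gja1), 4 (Aqp4) and 2 (S100b), with a median of 6. The median of all protein-coding genes was 6, with quartiles of 3 and 11. The ranges overlapped almost wholly, and the ratio of the medians, 1.67, turned to 0.75 (medians 3 and 4) when only peaks nearest to the gene itself were counted and to 0.911 (4.83 and 5.3) per 100 kb of locus. Peaks over the gene span numbered 18 at the radial glia genes and 11 at the astrocyte genes, with medians of 3 and 2 against 1 over all genes.

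**Figure D4:**
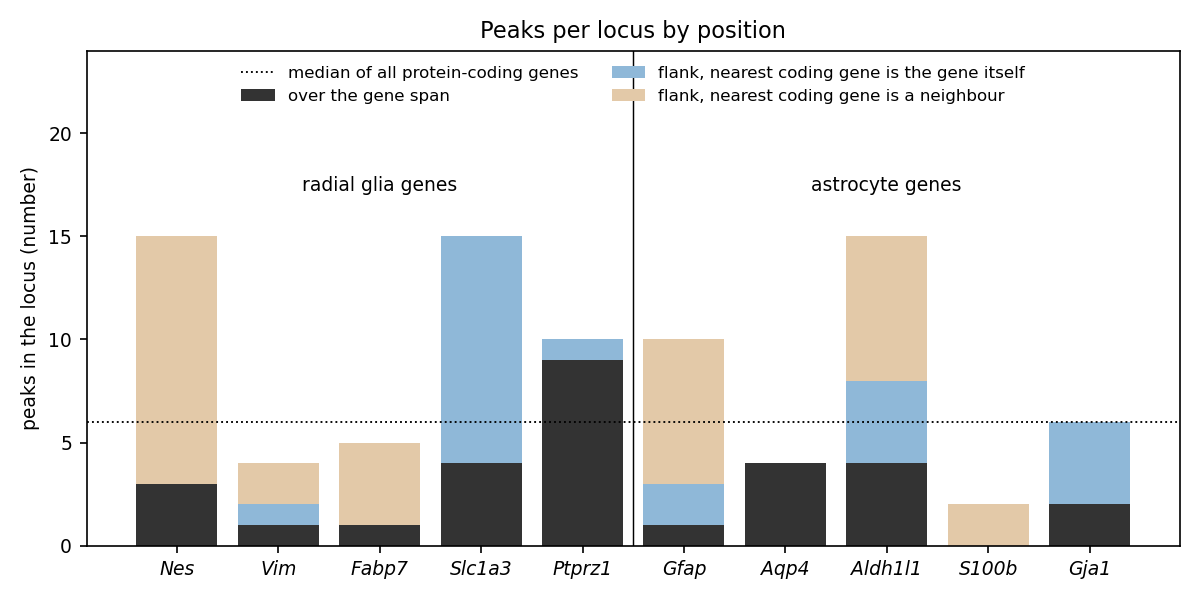
Number of peaks in each locus, as stacked bars split into peaks over the gene span, flanking peaks whose nearest protein-coding gene is the gene itself, and flanking peaks nearest to a neighbour, with the median of 6 over all protein-coding genes as a dotted line. Radial glia genes stand on the left and astrocyte genes on the right, and most peaks of the Nes, Fabp7, Gfap and S100b loci are nearest to a neighbour, whereas no peak of the Slc1a3, Ptprz1, Aqp4 and Gja1 loci is.

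The widths of the peaks were also compared. Peaks at radial glia loci had a median width of 914 bp and peaks at astrocyte loci one of 595 bp, against 565 bp over the series. Wider than 1000 bp were 23 of 49 radial glia peaks (46.9%) and 10 of 37 astrocyte peaks (27.0%), against 29.0% of all peaks. At the Nes locus 11 of 15 peaks were wider than 1000 bp, 9 of them nearest to another gene. Without that locus 12 of 34 radial glia peaks (35.3%) were wider than 1000 bp, and the median of their widths came to 640 bp. The widest peak of a locus was 5975 bp at Nes (over Crabp2), 4679 bp at Vim, 3393 bp at Ptprz1, 3164 bp at Fabp7 and 1501 bp at Slc1a3. At the astrocyte loci it was 2525 bp at Gfap (over C1ql1), 2323 bp at Gja1, 2078 bp at Aldh1l1 (over Slc41a3), 1185 bp at S100b (over Prmt2) and 781 bp at Aqp4. Peaks of 1 locus share a neighbourhood and are not replicates, and the difference was not tested.

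Wider lists of radial glia and astrocyte genes were also examined. Like the genes above, they were chosen with earlier results of these data known. They are therefore neither a neutral background nor an independent check of the contrast above. The radial glia list held 20 genes, among them the transcription factors Sox2, Sox9, Pax6, Hes1 and Hes5, the Notch1 receptor, the adhesion molecule Cdh2 and the matrix protein Tnc. All 14 of them with a start in the table had a gene-start peak, and the other 6 had a peak at an end of the span. The astrocyte list held 20 genes, among them the glutamate transporter Slc1a2, glutamine synthetase (Glul), the potassium channel Kcnj10 and apolipoprotein E (Apoe). Of its 17 genes with a start, 13 had a gene-start peak, and the other 3 had one at an end. The astrocyte genes without one at the start were Slc1a2, Gpr37l1, Itih3 and Agt. Slc1a2 and Gpr37l1 had a peak at another place within 1000 bp of a span end, while Itih3 and Agt had none at either end or over the span. The 13 of 17 of the astrocyte list lay near the 65.6% of all genes and the 14 of 14 of the radial glia list above it, and neither was tested.

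Gene-start peaks were wider in the radial glia list, with a median of 3693 bp over 14 genes (965 to 17055 bp), than in the astrocyte list. There the median was 1747 bp over 13 genes (498 to 3677 bp). The median of all genes was 1722 bp. The widest were at Pax6 (17055 bp), Hes5 (11125 bp) and Nr2e1 (8717 bp), and the narrowest of that list at Hopx (965 bp), whereas Fgfr3, a growth factor receptor, had the widest of the astrocyte list (3677 bp) and Hepacam, an adhesion molecule, the narrowest (498 bp). A peak of the broadest 1% lay within 1000 bp of the span of 12 of 20 radial glia genes and 0 of 20 astrocyte genes, against 3.95% of all. At Gli3, Sox2 and Lhx2 it was not the gene-start peak, which was 3470, 3916 and 2877 bp wide. Apart from Notch1 and Ttyh1, the 12 were transcription factor genes, and the astrocyte list held no such gene. Not every factor gene had one, Nfia being without. The lists thus differ in gene class as well as in cell type, and these were not separated. The 2 lists overlapped in width between 965 and 3677 bp, and no test was made. Because of how the lists were chosen, their differences in width and in broad peaks are described only.

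Composition differed between the lists as well. Of the genes with a promoter entry, 8 of 14 radial glia genes and 4 of 17 astrocyte genes had a CpG ratio of at least 0.6. Among genes of lower ratio, of which 35.5% had a gene-start peak over the genome, 6 of 6 radial glia and 9 of 13 astrocyte genes had one. Peaks per locus were similar, with medians of 9.5 and 8.5 against 6 for all genes. The radial glia loci with most peaks were those of the nuclear factor I gene Nfia (63), Gli3, a Hedgehog pathway factor (30), and Nfib (29), all genes over 200 kb long. The astrocyte loci with most were Kcnj10 (27, percentile 100 of its length class) and the GABA transporter gene Slc6a11 (26).

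**Figure D5:**
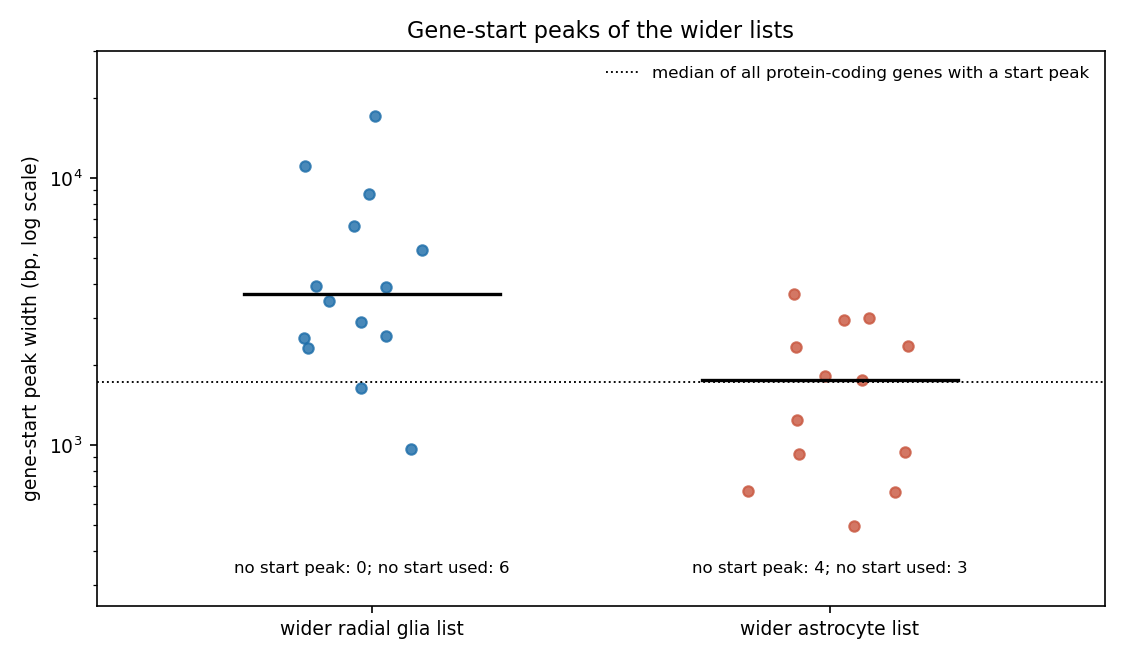
Width of the gene-start peak (bp, log scale) of 14 genes of the wider radial glia list, left, and 13 of the wider astrocyte list, right. Genes without a start in the reference table or without a gene-start peak have no point. A black bar marks the median of the points of each list, and a dotted line that of all protein-coding genes with a gene-start peak. The radial glia points reach 17055 bp, above the astrocyte maximum of 3677 bp, and the lists overlap below that.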

How the data were processed

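Per the labels, nuclei of E14.5 striatum were processed with 10x Genomics single-cell ATAC reagents. The submitters' processing notes name mm10, Cell Ranger ATAC 1.2.0 and Signac. The authors deposited 1 list of 87174 peak positions for the 2 libraries; peak caller, threshold and pooling are not given in the sources used here, nor whether starts count from 0 or 1, so positions can be off by 1 base. Doublets could not be examined.

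Gene spans came from a RefSeq table of GRCm38.p6 (49595 of 49997 entries kept after leaving out scaffold, mitochondrial and repeated entries; 21774 protein-coding), and strands and starts from RefSeq promoter windows (17492 coding genes). Where a gene had several starts, that nearest the 5′ end of the span was used. Overlap meant at least 1 bp. Percentiles were taken within 10 classes of gene length, and ties were split. Genes other than the 10 were named as the 3 list members with most peaks, up to 5 without a gene-start peak, neighbours holding peaks, and range ends chosen after values were seen; some genes so chosen are not reported here. The members and lists were chosen with earlier results of these data known. Python 3.11.15, pandas 2.3.3 and bedtools 2.31.1 were used, and overlap counting was tested on simulated data. Alternatives covered flank, window, peak width, midpoint, nearest gene, density, CpG threshold and leaving out each gene.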

Additional observations from a re-analysis of the deposited data

How the results depend on the processing

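Of 125 recomputed values, 91 stayed within 1.5 times the reported one, 32 moved further and 2 turned round. The ratio of the median peaks per locus, radial glia over astrocyte genes, was 1.67. It turned to 0.75 with only peaks nearest to the gene itself and to 0.911 per 100 kb of locus (the cause was not tested), and it rose to 3 with peaks at least as wide as the median. Leaving out each gene in turn gave 1.25 to 2.08. The 5 radial glia gene-start peaks stayed at 4 or more, Nes being lost when peaks were placed by midpoint, since the midpoint of its wide peak lies over 1000 bp into the gene. The astrocyte count rose to 4 with a window of 2500 bp, which takes in Gfap and, by the lower end of its span alone, Aqp4 (3 by known starts), and S100b had none in any setting. With the broadest 5% of peaks, 4 radial glia genes and 0 astrocyte genes had one. The median of the wider radial glia list moved to 5 with a flank of 10 kb, 15.5 with 100 kb and 5.5 with wide peaks only, and that of the wider astrocyte list to 3 with 10 kb. The share of low-ratio genes with a gene-start peak was 27.8% and 48.5% at CpG ratio thresholds of 0.5 and 0.75, and the share of radial glia peaks wider than 1000 bp was 35.3% without the Nes locus, against 46.9% with it. These thresholds, the count by known starts and the omission of Nes were chosen after seeing the data. Of 60 single-locus counts 23 moved, and 2 of 13 motif counts did. No paired analysis was possible because the series has 1 group and the result comes from no test. Depth is unknown, and peaks have no score, so a stricter peak threshold could be set only by width.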

Other observations

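Very narrow peaks occurred at 5 of the 10 loci. Peaks under 200 bp were those of 19 bp at Slc1a3, 23 bp at Ptprz1, 82 bp at Vim, 165 bp at Nes and 159 bp at Aldh1l1, so 4 of the 49 radial glia peaks and 1 of the 37 astrocyte peaks. Together they were 5.81% of the 86 peaks, against 10.7% of all peaks of the series. None of them lay at a gene start.

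Marker genes of the tissue were set beside genes of an organ outside it. The striatal and ganglionic eminence markers Dlx1, Dlx2, Gsx2, Meis2, Foxp1, Isl1 and Ebf1 each had a peak at the start, and Dlx5, without a start in the table, had one at an end of its span. Of 6 liver genes, 5 had a start in the table. Of these 1, Apoa1, had a peak there, of 1364 bp, and Alb, Fgb, Hnf4a and Serpina1a had none. Ttr, without a start in the table, had none at either end of its span. Of all protein-coding genes with a start, 65.6% had one. The CpG ratio was at least 0.6 at 5 of the 7 striatal markers with a start and at 0 of the 5 liver genes. Over all genes, 97.6% of those of such high ratio and 35.5% of those of lower ratio had a gene-start peak. Tissue and base composition were not separated here.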
